A study of Mus musculus with 95 samples.

Results

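MI0000274, the entry for the microRNA mir-187, is 1 of the 1881 features of a small RNA count table from mouse striatum, cortex and liver. It was chosen by its identifier, because earlier work on these data showed a high level in striatum and a lower striatal level in knock-in (KI) than in wild type (WT) mice. The striatal KI and WT values and the striatum and cortex values are therefore given as a description, without a test. The KI mice were heterozygous for zQ175, an Htt allele with an expanded CAG repeat, and were set against WT littermates of the same line. In the line CHDI-81003003 the neomycin resistance (neo) cassette at the allele was intact (neo-intact), and in CHDI-81003019 it had been deleted (neo-deleted). All mice were on a C57BL6/J background and aged 6 months, and each of the 12 combinations of tissue, line and genotype had 8 mice (4 female and 4 male), or 7 in the case of neo-deleted KI striatum. The same 32 mice gave the 3 tissues, so the 12 combinations are not separate sets of animals.

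A microRNA is cut from a hairpin transcript by the nucleases Drosha and Dicer. Loaded into an Argonaute protein, it represses messenger RNAs that pair with its seed, the bases near its 5′ end. In human monocytes, miR-187 is known as a microRNA induced by interleukin 10 that represses production of the cytokine TNF. The striatum consists mostly of spiny projection neurons, the cells most affected in Huntington's disease, and zQ175 mice carry the mutation of that disease in their own Htt gene.

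The mouse gene, Mir187, lies on chromosome 18 from 24429110 to 24429170 on the minus strand in the RefSeq and GENCODE annotation of GRCm38, the assembly also called mm10. No other annotated gene overlaps it, so the annotation places it between genes. The nearest other annotated gene was the protein-coding 2700062C07Rik on the plus strand, which starts 41680 nt away. The annotated mouse hairpin has 61 nt, whereas the deposited counts and FPKM implied a length of 109 nt for MI0000274 in every library. The species of the feature set is not given in the sources used here, so the values below are those of the entry to which reads were assigned. The entry covers the hairpin as a whole and does not separate the mature microRNAs of its arms. The files and reference tables used here paired no feature identifier with a name, so microRNAs that mark neurons, glia, blood or liver could not be looked up to check the tissue labels.

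MI0000274 had counts in all 95 libraries, and its estimated counts were whole numbers in all of them within 0.005. Library totals ran from 74540 to 496035 counts (median 124029). Library names carry an unexplained number after the letter L (the L number). The 26 libraries with L number 8 (L8) were deeper, with a median of 419439 counts against 117174 in the other 69. Striatal libraries were L7 or L8, cortical ones L1 or L8 apart from 1 with L2, and liver ones L1, L2 or L3. Genotypes were spread unevenly over them, so striatal KI and WT values are compared inside each L number, and the models within a tissue hold it as a term. Ranges and means given for a whole tissue or group run over all its L numbers. Levels below are counts per 1000000 counts of the library (CPM), without further scaling, as mean ± SD over animals. Fitted differences are on the log2 scale with TMM (trimmed mean) scaling, with SE and 95% intervals.

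In striatum, mir-187 was abundant in both genotypes. Its mean level was 1820 ± 673 CPM in KI mice (SD, n = 15) and 4855 ± 1853 CPM in WT mice (SD, n = 16). In cortex the 16 KI mice had 69.4 ± 22.8 CPM and the 16 WT mice 124 ± 128 CPM, and in liver the 16 KI mice had 126 ± 33.9 CPM and the 16 WT mice 125 ± 26.6 CPM. In length-normalised units, the 16 WT striata had 44544 ± 17000 FPKM. Ranked by FPKM among the features with counts in the same library, mir-187 was at a median rank of 84 in KI striata and 36 in WT striata. In liver the median ranks were 114.5 in KI and 119.5 in WT mice, and in cortex 182 in KI and 180.5 in WT mice. In WT mice mir-187 thus stood in the upper part of the striatal profile and in the lower part of the cortical one.

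Ordered by mean level, over all L numbers, the 4 striatal groups came first, led by neo-intact WT and then neo-deleted WT, neo-intact KI and neo-deleted KI mice. In this order, neo-intact and neo-deleted KI striata differed by less than the larger SD of the pair, and the other neighbouring striatal groups by more. Inside an L number this did not hold: in L7 the KI striata of the 2 lines were further apart than the SD of either, as given below, and in L8 the WT means were 2311 ± 94.5 CPM in neo-deleted mice (SD, n = 4) and 2327 CPM in the only neo-intact library. The lowest striatal library of all had 1248 CPM, and the highest library outside the striatum had 503 CPM, so that striatal and other libraries did not overlap. Cortex of neo-intact WT mice followed (169 ± 169 CPM), then liver of neo-intact KI, neo-intact WT, neo-deleted WT and neo-deleted KI mice (121 to 132 CPM). Last came cortex of neo-intact KI, neo-deleted WT and neo-deleted KI mice (82.8, 77.8 and 56.1 CPM). Among these 8 groups, the step from neo-deleted KI liver to neo-intact KI cortex was the only one between neighbours larger than the SD of either group.

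**Figure D1:**
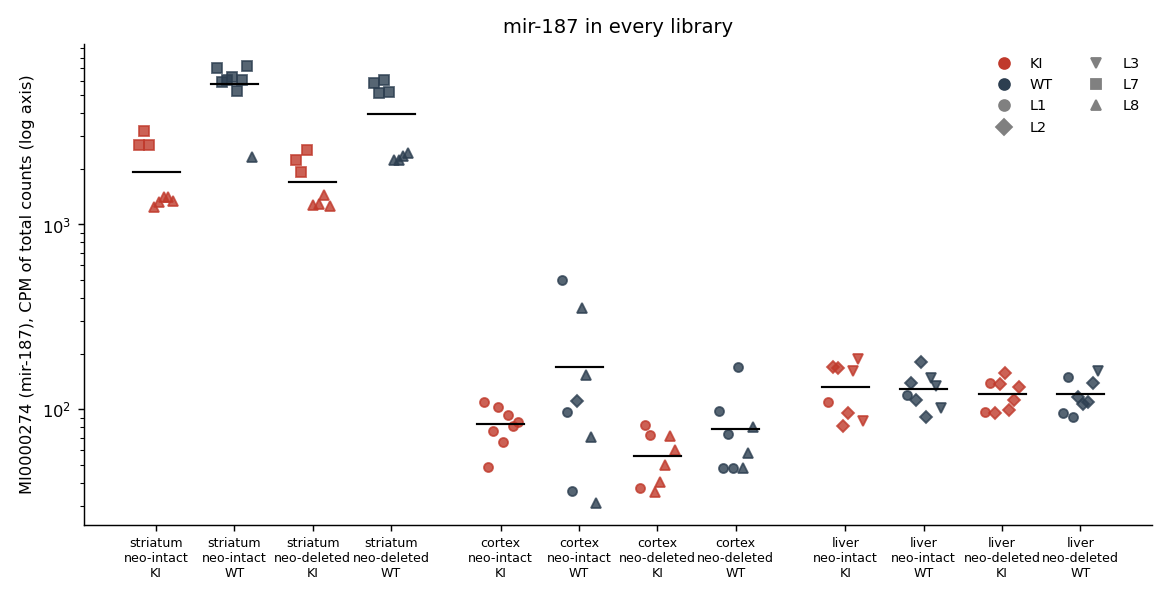
CPM of MI0000274 (log axis) in each of the 95 libraries, by tissue, line and genotype, with KI left of WT; marker shape gives the L number and black bars are group means. All striatal libraries lie above all others, and in striatum the L8 libraries lie below the L7 libraries of the same group.

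The KI striata had less mir-187 than the WT striata in both lines and inside each L number. In the neo-intact line, the 5 KI libraries with L8 had 1248, 1327, 1343, 1410 and 1410 CPM, against 2327 CPM in the only WT library. In L7 of that line, the 3 KI libraries had 2685, 2708 and 3221 CPM, against 5298 to 7219 CPM (median 6079) in the 7 WT libraries. Both sets were apart, with each KI library below each WT library of its L number. In the neo-deleted line, the 4 KI libraries with L8 had 1257, 1278, 1285 and 1450 CPM, against 2222, 2246, 2351 and 2425 CPM in the 4 WT libraries. In L7 of the neo-deleted line, the 3 KI libraries had 1918, 2243 and 2516 CPM, against 5177, 5214, 5811 and 6085 CPM in the 4 WT libraries. Here too no KI library reached the lowest WT library with the same L number. Across L numbers the ranges met, since KI libraries with L7 (1918 to 3221 CPM) spanned the WT libraries with L8 (2222 to 2425 CPM).

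As a ratio of means, KI over WT was 0.570 in L8 and 0.399 in L7 of the neo-deleted line, and 0.579 in L8 and 0.459 in L7 of the neo-intact line. The differences of the means, KI minus WT, were -994 CPM for neo-deleted and -979 CPM for neo-intact mice in L8. In L7 they were -3346 CPM for neo-deleted and -3389 CPM for neo-intact mice. Within an L number these gaps between KI and WT means were close in the 2 lines. The levels themselves were less close in L7, where KI means were 2226 ± 299 CPM in the neo-deleted and 2872 ± 303 CPM in the neo-intact line (SD), without overlap between the 3 libraries of each.

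**Figure D2:**
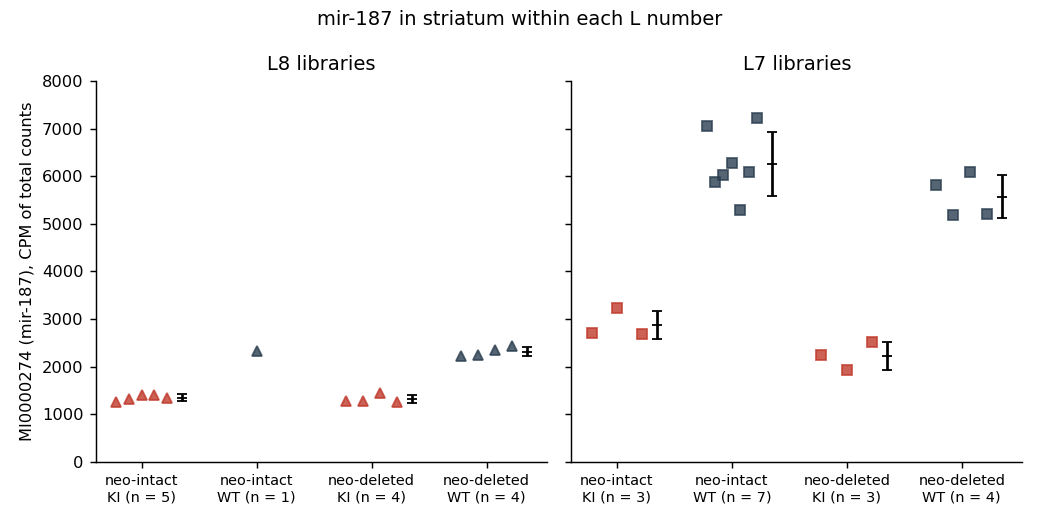
CPM of MI0000274 in striatum of KI and WT mice, for L8 libraries (left) and L7 libraries (right); each point is 1 library, and the bars are mean ± SD where a group has more than 1. Within each line and L number, the KI libraries all lie below the WT libraries.

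The fit with line and genotype group, sex and L number gave a KI minus WT difference of -1.01 (SE 0.10, 95% interval -1.19 to -0.82) for neo-intact mice. For neo-deleted mice it was -0.96 (SE 0.09, 95% interval -1.14 to -0.78). These correspond to KI over WT folds of 0.498 and 0.513. Of the 188 features fitted in striatum, 29 were called in each line at an adjusted p under 0.05 (15.4%), and mir-187 was among them in both. As mir-187 was chosen on this contrast, nothing is read from that. Set against the other features, mir-187 had the 2nd lowest difference in the neo-intact line and the lowest in the neo-deleted line, beside a median of 0.03 over all 188 features in each. In whole tissue, fewer cells of a type and less of the RNA per cell cannot be told apart.

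The KI effect was then compared between lines, sexes and L numbers. The choice of mir-187 did not ask for such differences, but it used the same striatal KI and WT values. Choosing a feature that is lower in KI can favour similar effects in the 2 lines, so their likeness is not read as separate evidence. The effect in the neo-deleted line minus that in the neo-intact line was 0.04 (SE 0.13, 95% interval -0.21 to 0.30, edgeR quasi-likelihood adjusted p = 0.987). Of 188 features 1 (0.532%) was called in this contrast, and mir-187 was not. Its interval leaves room for the effects of the 2 lines to differ by up to 0.30. The female KI effect minus the male one, over both lines, was -0.19 (SE 0.13, 95% interval -0.44 to 0.05, adjusted p = 0.722). None of 193 features (0%) was called there by edgeR or DESeq2, and 15 had an unadjusted p under 0.05 in edgeR.

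The KI effect in L8 minus that in L7 was 0.23 (SE 0.11, 95% interval 0.00 to 0.45, edgeR adjusted p = 0.487). This contrast was added after the values were seen. edgeR called 0 of 190 features (0%), with 20 at an unadjusted p under 0.05, and DESeq2 called 1, which was not mir-187. In both lines the ratio of KI to WT means lay closer to 1 in L8, and the difference between L numbers did not pass the test.

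In WT striata, the neo-deleted minus neo-intact difference was -0.24 (SE 0.09, 95% interval -0.42 to -0.06), which was not called (edgeR adjusted p = 0.505). In this comparison 0 of 188 features (0%) were called by edgeR or DESeq2, and 8, mir-187 among them, had an unadjusted p under 0.05 in edgeR. Within L7 the WT means were 5572 ± 449 CPM in the neo-deleted line (n = 4) and 6261 ± 672 CPM in the neo-intact line (n = 7). These 2 ranges overlapped, at 5177 to 6085 CPM in the neo-deleted line and 5298 to 7219 CPM in the neo-intact line. Within L8 the 4 neo-deleted WT libraries (2222 to 2425 CPM) lay on both sides of the only neo-intact one (2327 CPM).

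Female and male striata did not differ detectably, with a female minus male difference of -0.02 (SE 0.07, 95% interval -0.15 to 0.11, edgeR adjusted p = 0.983). edgeR and DESeq2 called 0 of 188 features (0%) by sex, and 19 had an unadjusted p under 0.05 in edgeR.

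The level of mir-187 also moved with the L number. L8 libraries had fewer CPM than L7 libraries in each striatal group, with L8 over L7 ratios of 0.469 in neo-intact KI, 0.372 in neo-intact WT, 0.592 in neo-deleted KI and 0.415 in neo-deleted WT mice. The fitted L8 minus L7 difference was -1.39 (SE 0.07, 95% interval -1.54 to -1.25, edgeR adjusted p = 1.48e-16). In this contrast 159 of 188 features (84.6%) were called, so that mir-187 was 1 of many, and the median over all features was 0.17. With total counts in place of TMM scaling, the difference of mir-187 was -1.10 and that median 0.46. Without the L number in the fit, the striatal KI minus WT differences were -1.62 for neo-intact and -1.17 for neo-deleted mice. What the L number stands for is not stated, and why the levels differ with it was not tested.

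**Figure D3:**
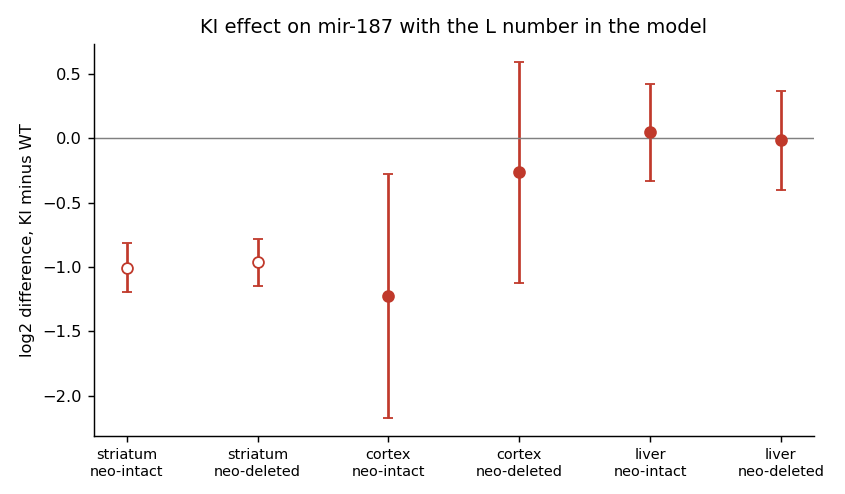
Fitted KI minus WT difference of MI0000274 (log2 scale, TMM scaling, L number in the model) in striatum, cortex and liver of each line, with 95% intervals. Open circles are the striatal values by which mir-187 was chosen, at -1.01 and -0.96; the cortical intervals are wide, and the liver values lie near 0.

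Cortex held little mir-187, and no cortical KI effect was called. In the neo-intact line, the 8 KI cortices, all L1, had 48.4 to 109 CPM (median 83.3, on 6 to 15 counts). The 8 WT cortices had 31.2 to 503 CPM (median 104, on 4 to 163 counts), so that the WT range enclosed the KI range. In the neo-deleted line, the 8 KI cortices had 35.7 to 81.8 CPM (median 54.8) and the 8 WT cortices 47.8 to 169 CPM (median 65.7), and the groups overlapped.

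The fitted cortical KI minus WT difference was -1.22 in the neo-intact line (SE 0.48, 95% interval -2.17 to -0.27, edgeR adjusted p = 0.470). For neo-deleted mice it was -0.26 (SE 0.44, 95% interval -1.12 to 0.60, edgeR adjusted p = 0.859). Neither contrast called any of 186 features (0%) in edgeR or DESeq2, and in edgeR 15 features of the neo-intact comparison, mir-187 among them, and 9 of the neo-deleted comparison had an unadjusted p under 0.05. Among the 186 features, mir-187 had the lowest difference in the neo-intact and the 16th lowest in the neo-deleted comparison. The neo-intact value rested on few libraries. Without the cortex of WT mouse F3 it was -0.57, without that of WT mouse M4 -1.49, and both were short of the threshold. The neo-intact KI cortices had no L8 library, so that L1 was the only L number with both genotypes of this line, at 82.8 ± 19.6 CPM in KI (n = 8) and 212 ± 254 CPM in WT mice (n = 3). Both cortical intervals include -1.01 and -0.96, the striatal values by which mir-187 was chosen. That of the neo-deleted line includes 0 as well.

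The spread in cortex came from a few WT libraries, named here after their values were seen. Mouse F3 of the neo-intact WT group had 503 CPM (57 counts, 95% Poisson interval 381 to 652 CPM), while the other 18 L1 cortices had 36.2 to 169 CPM (median 78.6). Mouse F1 had 352 CPM (163 counts, 95% Poisson interval 300.1 to 410 CPM) and mouse F2 154 CPM (59 counts, 95% Poisson interval 117 to 199 CPM), both L8. Each of these 2 stood above the 10 other L8 cortices, which had at most 79.7 CPM.

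Among the 11 KI cortices with L1, the variance between libraries was 0.783 of that expected from counting alone. For the 8 WT cortices with L1 the corresponding value was 21.6. Within L8 it was 1.86 for the 5 KI cortices and 50.1 for the 7 WT cortices. These Poisson values cover counting error only, since without molecular identifiers the reads cannot be counted as separate molecules.

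The striata of the 3 WT mice did not stand apart, at 7053 CPM for F1, 5884 CPM for F2 and 6017 CPM for F3, inside the range of the 7 L7 libraries of their group. Next, the 7 other features with a WT striatum minus cortex difference of at least 1 were examined in the same cortices. In F1 all 7 were among the 3 highest of the 12 L8 cortices, at a median of 1.83 times the median of the L8 cortices. In F2 0 of 7 were among the 3 highest, at a median of 0.870 times that median, and in F3 2 of 7 were among the 3 highest of the 19 L1 cortices, at a median of 1.06 times. In F1 high mir-187 thus went together with high levels of these features. The share of all features among the 3 highest in F1 was not computed, so this is not read as particular to features high in striatum. The striatum minus cortex differences of the 7 features were at most 2.12, against 5.14 for mir-187. They therefore cannot show whether F1, F2 or F3 held a small share of striatal tissue. The part of striatal tissue in these cortical samples was not tested.

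**Figure D4:**
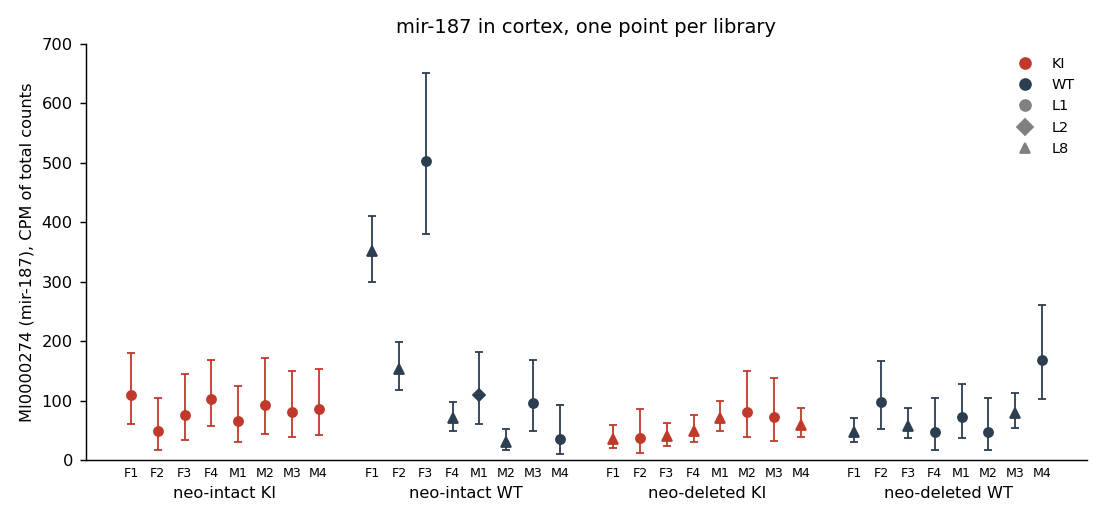
CPM of MI0000274 in each cortical library with 95% Poisson intervals of its count, by line and genotype, with KI left of WT; marker shape gives the L number, and mice carry their replicate labels. Neo-intact WT mice F1 (352 CPM), F2 (154 CPM) and F3 (503 CPM) and neo-deleted WT mouse M4 (169 CPM) lie above the rest, and the KI cortices lie between 35.7 and 109 CPM.

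In liver mir-187 was low and even. The 8 neo-intact KI livers had 81.5 to 186 CPM (median 136) and the 8 neo-intact WT livers 90.2 to 181 CPM (median 126). In the neo-deleted line, the 8 KI livers had 95.4 to 158 CPM (median 122) and the 8 WT livers 90.7 to 161 CPM (median 113). Both pairs of groups overlapped over most of their range. Each liver library held only 7 to 24 counts, and over all 32 the variance was 0.744 of that expected from counting alone.

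The liver KI minus WT difference was 0.05 in the neo-intact line (SE 0.19, 95% interval -0.33 to 0.43, edgeR adjusted p = 0.936). It was -0.02 for neo-deleted mice (SE 0.20, 95% interval -0.40 to 0.37, edgeR adjusted p = 0.988). Neither called any of 131 features (0%) in edgeR or DESeq2, with 13 and 4 at an unadjusted p under 0.05 in edgeR in the neo-intact and neo-deleted lines. The 2 intervals end at -0.33 and -0.40 and do not reach the striatal values of -1.01 and -0.96. Those striatal values are the ones by which mir-187 was chosen, so they are not a neutral standard for liver. A direct test of striatum against liver was not made.

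The tissues were compared in WT mice. The striatum minus cortex difference was 5.14 (SE 0.27), or 35.1-fold, the highest of the 173 features with a mean of at least 100 CPM. In that fit 126 of all features fitted (72%) were called, and since mir-187 was chosen for this contrast, nothing is read from its being among them. The fit set L7 together with L1 and the L2 library, and L8 was the only L number in both tissues. Within L8 the WT means were 2314 ± 82.1 CPM in 5 striata and 113 ± 112 CPM in 7 cortices, a ratio of 20.4, and the fitted difference was 4.99. The next features in the fit over all libraries were MI0003938, with a difference of 2.12, and MI0000261, with 1.68. Neighbours in this order were thus several log2 units below mir-187. By animal, striatum over cortex was 12.97 to 66.5 in 15 KI mice (median 24.9) and 11.97 to 199 in 16 WT mice (median 48.4). The ranges overlapped, with L numbers that differ between the tissues of a mouse.

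The liver minus cortex difference in WT mice, without L8 libraries, was 0.09 (SE 0.30, 95% interval -0.49 to 0.67, edgeR adjusted p = 0.773). Tissues of the same animals entered this fit and that of striatum and cortex without a term for the animal. With the animal as a block, the liver minus cortex difference was 0.39 (edgeR adjusted p = 0.333) and the striatum minus cortex difference 5.31. In the liver and cortex fit without the animal term, 168 of 177 features (94.9%) were called, and the median over all features was -1.08. Without the cortex of neo-intact WT mouse F3 the difference was 0.71, and it was then called (edgeR adjusted p = 0.00455). Liver had more mir-187 than cortex of the same animal in 14 of 15 KI mice and 10 of 16 WT mice with all 3 tissues. Mice with an L8 cortex, which the fit left out, are included here. Each liver library held only 7 to 24 counts of mir-187.

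Features with a striatal pattern like that of mir-187 were picked by the Pearson correlation over the 31 striatal libraries of log2 CPM less the mean of the L number, among 176 features with a mean of at least 100 CPM. These are descriptions: the libraries share the genotype contrast, and the values of 1 library share its depth. The highest correlations were those of MI0000261 (r = 0.93) and MI0000449 (r = 0.89), and the lowest those of MI0000271 (r = -0.90) and MI0003139 (r = -0.70). The median over the 176 features was -0.06, and 4 exceeded 0.8. No names or roles are given for these features, since the files pair none with them.

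The likeness followed the genotype in most of these features. The KI minus WT differences in the neo-intact and neo-deleted lines were -0.41 and -0.43 for MI0000261 and -0.60 and -0.68 for MI0000449. For MI0000271 they were 0.45 and 0.48, and for MI0003139 0.50 and 0.48. After the mean of each line, genotype and L number was also taken out, leaving 30 libraries, the correlation was 0.67 for MI0000261, the highest of all 176. It was then -0.02 for MI0000449, -0.13 for MI0000271 and 0.36 for MI0003139. Other features came close to MI0000261 on this measure, with 0.66 for the next and 0.65 for the one after it, and neither of these was like mir-187 before group means were taken out (r = 0.04 and -0.16).

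MI0000261 moved little with the L number. Its L8 minus L7 difference was -0.15 with TMM scaling, beside -1.39 for mir-187, whereas its CPM of total counts in the neo-deleted line, given next, were higher in L8 than in L7. In L8 of the neo-deleted line it had 2048 ± 92.5 CPM in the 4 KI and 2764 ± 107 CPM in the 4 WT mice, and in L7 1818 ± 206 CPM in the 3 KI and 2683 ± 157 CPM in the 4 WT mice (SD). KI and WT libraries of MI0000261 did not overlap in either.

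Likeness over the means of the 12 groups was taken among 178 features with a mean of at least 100 CPM in WT striata. The highest correlations with mir-187 were those of MI0003137 (r = 0.83) and MI0000486 (r = 0.82). The group means mix L numbers, and both features, like mir-187, were lower in L8 than in L7 (-1.64 and -1.42). Over all L numbers, MI0003137 had 143 CPM in KI and 161 CPM in WT striata. Inside L8 the KI and WT striata had 82.7 and 74.8 CPM in the neo-intact line (1 WT library). In the neo-deleted line they had 95.8 and 78.5 CPM. Inside L7 they had 249 and 192 CPM in the neo-intact line, and 201 and 213 CPM in the neo-deleted line. MI0003137 had 53.3 CPM in KI and 46.6 CPM in WT cortices, and 29.4 CPM in KI and 34.7 CPM in WT livers. Over all L numbers, MI0000486 had 134 CPM in KI and 160 CPM in WT striata. Inside L8 its KI and WT striata had 85.7 and 79.3 CPM in the neo-intact line (1 WT library). In the neo-deleted line they had 84.2 and 89.1 CPM. Inside L7 they had 191 and 206 CPM in the neo-intact line, and 223 and 170 CPM in the neo-deleted line. MI0000486 had 82.2 CPM in KI and 80.2 CPM in WT cortices, and 56.2 CPM in KI and 52.2 CPM in WT livers. Both were highest in striatum, with a far smaller step between tissues than mir-187. The striatal filter and the picking by likeness favour such features, so nothing is read from that order. They were not like mir-187 within striatum: with the mean of the L number taken out, their correlations with it were -0.30 and -0.28. The fitted KI minus WT differences in the neo-intact and neo-deleted lines were 0.30 and 0.20 for MI0003137 and -0.02 and 0.17 for MI0000486.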

How the data were processed

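Small RNA libraries of striatum, cortex and liver were compared. The deposited tables held estimated counts per feature and FPKM, which the authors made with CASAVA 1.8.2 and mm10, per the submitters' processing notes; the aligner, counter and feature set are not given in the sources used here. Counts were rounded and fitted per tissue with edgeR 4.0.16 (R 4.3.3; quasi-likelihood test, TMM scaling, filterByExpr at 10 counts and a total of 15, Benjamini-Hochberg adjustment over all features fitted). Terms were group, sex and L number; between tissues they were sex and line, with L8 against other L numbers for striatum and cortex. DESeq2 1.42.0 was an alternative. FPKM gave the implied length and the ranks. Fits were tested on simulated counts. Confidence intervals are 1.96 SE, or exact Poisson for a count. Those of 1.96 SE use a normal multiplier and can be slightly narrower than the edgeR quasi-likelihood test would give.

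MI0000274, the lists and the tests were chosen with earlier results of these data known. Others named were the 2 features most and least correlated with it in striatum, the 2 most correlated over group means, and the next 2 in striatum over cortex. None of the identifiers was found in the reference tables, which listed 1072 microRNA genes, so lists by name could not be applied.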

Additional observations from a re-analysis of the deposited data

Results flagged for a closer look

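Of 24 groups of 4 to 10 libraries tested for a lone high or low library, 3 had one, where chance gives about 1 in 20. In cortex of neo-deleted WT mice, M4 was the highest at 169 CPM, above 7 others at 47.8 to 97.6 CPM. In striatum of neo-intact WT mice, M3 was the lowest at 2327 CPM, and it was the only L8 library of its group, inside the range of the neo-deleted WT libraries with L8. In striatum of neo-deleted KI mice with L8, M2 was the highest at 1450 CPM, above 1257 to 1285 CPM in the other 3 and below each WT library with L8.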

How the results depend on the processing

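Of 86 values under another setting, over 14 results, 76 kept their direction and side of the threshold or moved by less than 1 SD. In striatum, the KI minus WT difference without the L number was -1.62 (neo-intact) and -1.17 (neo-deleted); it was -1.24 in L7 of the neo-deleted line, and -0.76 and -0.74 in L8 of the neo-intact and neo-deleted lines. Values near 0 changed sign: female minus male was 0.36 without the L number and 0.0040 with total counts, the neo-deleted liver KI effect 0.018 without the L number and 0.0036 with the replicate block, and liver minus cortex -0.076 with total counts; the cause was not tested. Calls over all features were 29 in each line in striatum. They were 10 in the neo-deleted line without the L number, 47 with DESeq2 and 8 in L7, and 13 in L7 and 3 in L8 of the neo-intact line. In neo-intact cortex 18 were called without the L number, against 0 with it. With no filter on low counts, 6 were called in neo-intact and 5 in neo-deleted liver, against 0 in each, and the line difference of the KI effect called 0 without the L number, against 1.

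Leaving out 1 library at a time gave -1.06 to -0.91 for the striatal KI effect in the neo-intact line, -0.997 to -0.85 in the neo-deleted line, and -0.039 to 0.093 for their difference. The other ranges were -0.28 to -0.17 (WT lines), -0.053 to 0.0068 (sex), -0.25 to -0.13 (KI effect by sex), -1.44 to -1.36 (L8 minus L7), 0.17 to 0.36 (KI effect in L8 minus that in L7), -1.49 to -0.57 and -0.41 to -0.06 (neo-intact and neo-deleted cortex), -0.021 to 0.19 and -0.093 to 0.048 (neo-intact and neo-deleted liver), 5.06 to 5.31 (striatum minus cortex) and -0.045 to 0.71 (liver minus cortex).

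Replicate numbers name different animals in KI and WT groups and did not pair them: the correlation of same-numbered pairs ran from -0.41 to 0.54, with 11 of 47 over 0.1. With the replicate block, the KI effect was -1.001 and -0.99 in neo-intact and neo-deleted striatum (24 and 28 features called), -1.22 and -0.22 in cortex, and 0.06 and 0.0036 in liver. Counts of mir-187 per library were as few as 7 in liver and 4 in cortex; in WT cortex the variance between libraries was far above counting error.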

Other observations

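Levels of mir-187 did not overlap between the sexes in 2 of the 12 groups, in opposite directions. In liver of neo-intact KI mice they were 161 to 186 CPM in 4 females (13 to 20 counts) and 81.5 to 110 CPM in 4 males (7 to 11 counts). In cortex of neo-deleted KI mice they were 35.7 to 49.7 CPM in 4 females (5 to 20 counts) and 60.01 to 81.8 CPM in 4 males (9 to 33 counts). In liver of neo-intact WT mice the sexes overlapped, at 113 to 147 CPM in females and 90.2 to 181 CPM in males. They overlapped in liver of the neo-deleted line too, at 95.4 to 138 CPM in KI females and 98.9 to 158 CPM in KI males, and at 95.4 to 161 CPM in WT females and 90.7 to 139 CPM in WT males. These groups were singled out after their values were seen, and no test was run on them. No share over other features is given here, so the 2 groups are not read as a sex effect on mir-187.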
